A study of Papilio xuthus with 10 samples.

Results

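Expression in the female pupa of the swallowtail butterfly *Papilio xuthus* was compared with that in the male pupa over each gene with an RPKM (reads scaled by gene length and library total) of 1 or more in either library. This rule kept 12420 of the 15123 genes of the deposited table, of which 10919 reached 1 in both pupae, 460 in the female pupa only and 1041 in the male pupa only. The 12420 genes included 155 with a highest pupal value under 1.1, and the 2703 genes left out included 134 with a highest pupal value between 0.9 and 1. The series holds 10 whole-body poly-A RNA libraries, 1 for the egg, 5 for the larval instars (stages separated by a moult), and 1 each for the female and male pupa and the female and male adult. Each pupal library came from 1 animal, the egg and first 2 larval libraries from pooled animals, and the labels name no strain, treatment, age within the pupal stage or sex of the larvae.

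A butterfly pupa rebuilds the body between larva and adult, and in Lepidoptera (butterflies and moths) much of the gonad matures in this period, with sperm formed in the testis and egg chambers in the ovary. Males carry 2 Z chromosomes and females a Z and a W. A whole-body library mixes gonads with muscle, epidermis, fat body, gut and nervous tissue, and in such a library fewer cells of a type and less RNA per cell cannot be told apart. The identifiers of the table are not paired with gene names, and 0 of them matched the 13139 genes of RefSeq assembly Pxut_1.1. Functions, chromosomes and marker genes of testis or ovary were therefore not assigned, the labelled sex of the pupae was not checked against markers, and at most 2 identifiers are printed per direction.

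Library totals read back from the values were 32549310 reads for the female pupa and 35161755 for the male pupa, so that in a gene of 1 kb the smallest level taken as measurable, 3 reads, was an RPKM of 0.0922 and 0.0853. Over the 10 libraries the totals ranged from 23378656 to 35161755. Reads summed over genes made up 84.9% of the total in the female pupa and 86.3% in the male pupa, but between 124% and 154% in instars 2 to 5. How this excess arose was not tested, and detection in the larvae is also given below at other scalings. The egg and instar 1 libraries were the most alike of the 6 egg and larval libraries, with a Spearman's rho of 0.971 across the 12420 genes (genes are not independent replicates), so that they count as nearly 1 view of early development.

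Most genes stood at nearly the same level in both pupae, and the large differences lay almost all on the male side. Differences were taken as log2(RPKM + 1) in the female pupa minus that in the male pupa. The median was 0.06, the quartiles were -0.28 and 0.35, and 66.8% of the genes lay within 0.5 of 0. As deposited, 6822 genes were above 0 and 5598 below, a balance set by the scaling: it was 6316 and 6104 at a common upper quartile, 7906 and 4514 at a common RPKM sum, and 6083 and 6337 with the median ratio of genes at a mean of 10 or more set to 1. The tails were unequal: the 1st percentile was -4.54 and the 99th was 1.59.

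Genes were counted as differing at 2 or more on this scale, which for abundant genes is a ratio of 4. By this rule 678 of the 12420 genes differed (5.46%), 69 of them higher in the female pupa (0.556%) and 609 higher in the male pupa (4.90%). With 1 animal per sex there is no replicate error and no test, so that sex, individual and age within the pupal stage cannot be told apart. The female portion was smaller at the larger thresholds, though not at every step. Of the genes past the threshold it was 28.0% at a difference of 1 or more (445 female, 1142 male), 10.2% at 2, 5.09% at 3 (20 and 373), 4.83% at 4 (10 and 197) and 5.56% at 5 (5 and 85). At 6 it was 2.78% (1 and 35) and at 7 it was 7.14% (1 and 13), portions that rest on a single female-higher gene.

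**Figure D1:**
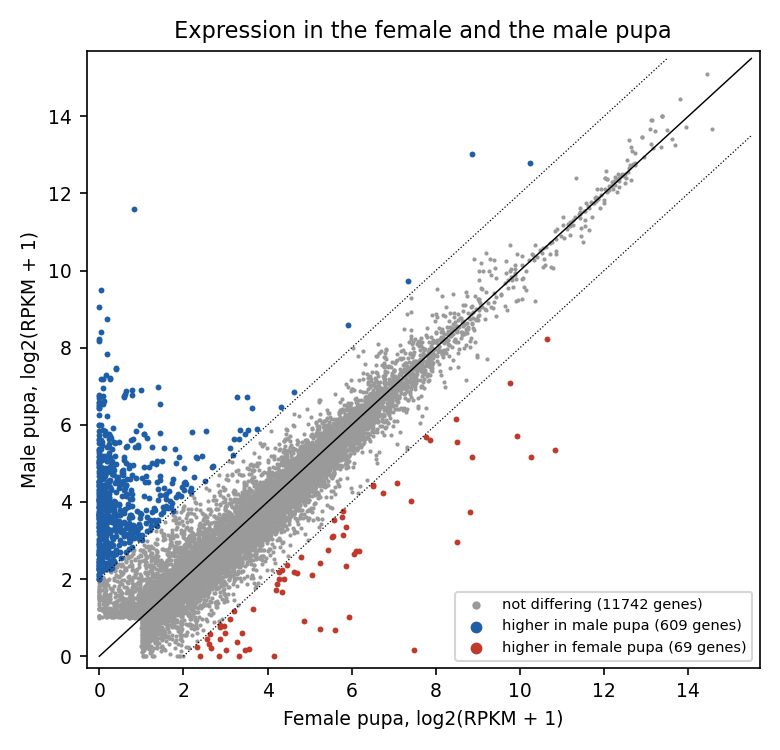
Each point is 1 of 12420 genes, with log2(RPKM + 1) in the female pupa on the horizontal and in the male pupa on the vertical axis, the solid line marking equal values and the dotted lines a difference of 2. The 609 genes higher in the male pupa (blue) crowd along the left edge, where the female pupa is near 0, whereas the 69 higher in the female pupa (red) are spread over the range.

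The 2 directions differed in form. The 609 male-higher genes had a median RPKM of 14.5 in the male pupa against 0.190 in the female pupa, and a median difference of -3.39. The 69 female-higher genes had a median of 32.2 in the female pupa and 3.57 in the male pupa, with a median difference of 2.51. A male-higher gene was thus mostly near absence in the female pupa, and a female-higher gene was mostly still expressed in the male. Of the 12420 genes, 288 had an RPKM of 1 or more in the male pupa and below 0.1 in the female pupa. For 159 of these the female pupa had 0 reads. The reverse held for 24 of the 12420, 16 of them with 0 reads in the male pupa. Each of these genes entered the set through 1 pupa alone, and 221 of the 288 and 4 of the 24 counted as differing. The 288 genes had a median of 9.41 in the male pupa and reached 720, whereas the 24 genes reached 16.9 in the female pupa.

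Depth allowed these calls in nearly every gene. The higher pupa had a median of 511 reads among male-higher genes and 944 among female-higher genes, with a minimum of 20 and 45. Only 8 of the 609 and 1 of the 69 had fewer than 50 reads there. Without a pseudocount, over the 10970 genes whose pupal reads summed to at least 100, and with fewer than 3 reads set to 3, 103 genes were 4-fold or more higher in the female pupa and 724 in the male pupa. At 100-fold these numbers were 2 and 192, and at 1000-fold 1 and 13. A pseudocount of 0.1 in place of 1 raised the female-higher genes from 69 to 190 and the male-higher genes from 609 to 857, while the percentage differing at a mean pupal RPKM of 100 or more stayed at 2.63%.

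Near the threshold the genes were of 2 kinds. The female-higher gene closest to it stood at 54.3 in the female pupa and 12.7 in the male, and the one just outside had 2.94 and 0. On the male side the gene just inside had 0 in the female pupa and 3.00 in the male pupa, and the gene just outside 0 and 2.98. Among weakly expressed genes a value of about 3 against 0 is enough to pass, so that a gene below 3 in both pupae could not be counted.

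Male-higher genes were concentrated at moderate abundance, whereas the portion of female-higher genes rose slowly with abundance up to a mean of 1000. Genes were binned by the mean RPKM of the 2 pupae. Of the 3372 genes with a mean of 3 to 10, 302 were male-higher (8.96%) and 17 female-higher (0.504%). At 10 to 30 there were 175 of 3661 (4.78%) and 19 (0.519%), and at 30 to 100 there were 46 of 2223 (2.07%) and 15 (0.675%). Of the 771 genes at 100 to 1000, 9 were male-higher (1.17%) and 12 female-higher (1.56%), the one bin where female-higher genes were the more numerous. Above 1000, 3 of 142 genes differed, all higher in the male pupa. Below 3 the values were 74 of 2251 (3.29%) and 6 (0.267%), in a bin where the threshold itself limits what can be counted.

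**Figure D2:**
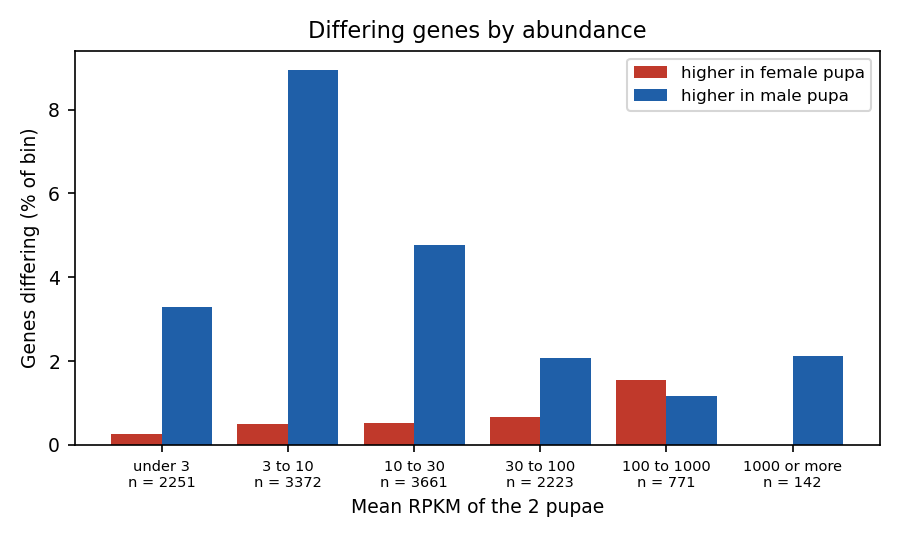
Bars give the genes higher in the female (red) and in the male pupa (blue) as a percentage of the genes in each bin of the mean RPKM of both pupae, with the number of genes per bin below. The male percentage peaks at 8.96% for a mean of 3 to 10, and the female percentage is highest, at 1.56%, for 100 to 1000.

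In all, 477 of the 609 male-higher genes (78.3%) had a mean between 3 and 30, as did 36 of the 69 female-higher genes (52.2%) and 56.6% of the 12420. A mean of 30 or more was seen in 9.52% of the male-higher genes, 39.1% of the female-higher genes and 25.3% of the 12420. The spread among all genes narrowed with abundance, from an interquartile range of 0.94 below 3 to 0.55 at 10 to 30 and 0.24 above 1000. The counting error of a difference was smaller at each level, with a median standard error of 0.18, 0.07 and 0.01 in these 3 bins.

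The differing genes carried little of either library. The 609 male-higher genes held 3.24% of the summed RPKM of the male pupa and 0.225% of that of the female pupa. The 69 female-higher genes held 1.06% in the female pupa and 0.0956% in the male pupa. A few genes made up much of this: the 3 most abundant accounted for 50.5% of the male-higher sum and 42.3% of the female-higher sum. Without those 3, the male-higher genes held 1.61% of the male pupa and 0.0636% of the female pupa.

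Both of the most abundant male-higher genes were also well expressed in the female pupa. The first stood at 8297 RPKM in the male pupa against 461 in the female, a ratio of 18.0, and was expressed throughout, between 286 in the egg and 992 in instar 5. The second reached 7080 in the male pupa against 1213 in the female, a ratio of 5.84, and lay between 70.8 in the egg and 778 in instar 5. Both had less in the adults, with 146 and 21.1 in the female and 111 and 5.61 in the male. The next most abundant, RR46_09865, was below an RPKM of 1 in the female pupa.

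RR46_09865 had the largest difference in the comparison, at -10.77. In the male pupa its RPKM was 3108 (25899 reads, exact 95% interval 3070 to 3146), against 0.778 (6 reads, 0.285 to 1.69) in the female pupa, a ratio of 3996 (1836 to 10889). It had 0 reads in the egg, instar 1 and instar 3, and between 1 and 8 reads in instars 2, 4 and 5, at most an RPKM of 1.24. In adults it stood at 1176 in the male and 13.0 in the female.

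RR46_02336 followed, with a difference of -9.46. It had 720 (34079 reads, 712 to 727) in the male pupa against 0.0228 (1 read, 0.000577 to 0.127) in the female pupa. The ratio was 31547, with a counting interval of 5662 to 1246100 that shows how little 1 read fixes it. No egg or larval library had more than 3 reads of this gene. The male adult had 184 and the female adult 1.86.

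On the female side RR46_02664 had the largest difference, at 7.31. Its RPKM was 177 (12146 reads, 174 to 180) in the female pupa and 0.122 (9 reads, 0.0556 to 0.231) in the male pupa, a ratio of 1458 (768 to 3189). Unlike RR46_09865 and RR46_02336, it was well expressed before the pupa, with 10.1 in the egg, 14.2 in instar 1, 192 in instar 2, 354 in instar 3, 14.0 in instar 4 and 603 in instar 5. Both adults were low, at 0.108 in the female and 0.942 in the male. The male pupa therefore lay far below instar 5, and the female pupa close to instar 2.

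RR46_07865, with a difference of 5.54, had 363 (7122 reads, 354 to 371) in the female pupa and 6.84 (145 reads, 5.77 to 8.05) in the male pupa, a ratio of 53.1 (45.0 to 63.0). It too varied among the larvae, from 0.395 in instar 4 to 389 in instar 5, with 18.8 in the egg, 27.5 in instar 1, 48.5 in instar 2 and 20.7 in instar 3. In adults the male had more (42.7) than the female (13.7).

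**Figure D3:**
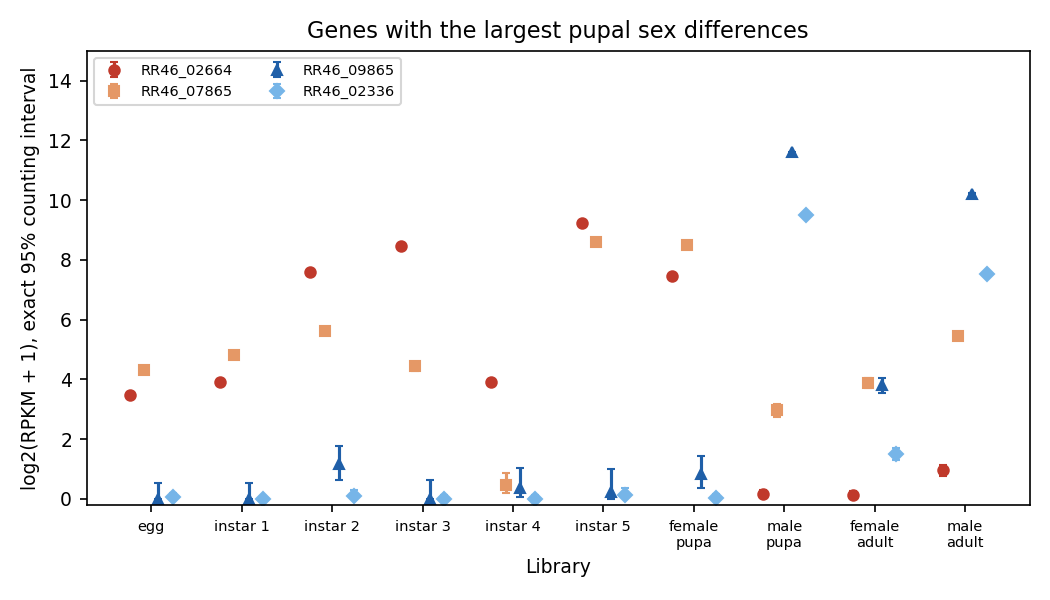
Log2(RPKM + 1) of the 2 genes with the largest female-higher (RR46_02664, RR46_07865) and the 2 with the largest male-higher difference (RR46_09865, RR46_02336) in the 10 libraries, with exact 95% counting intervals. The male-higher genes are near 0 in the egg, larvae and female pupa and rise to an RPKM of 3108 and 720 in the male pupa, whereas the female-higher genes are expressed in larvae, with less in instar 4 than in instars 3 and 5.

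The place of the differing genes in the egg and larvae was examined next. The egg and larval values did not enter the sex comparison, but the pupal values that some measures set beside them did. Most male-higher genes were below detection before the pupa. Of the 609, 431 (70.8%) were below an RPKM of 1 in the egg and in each of the 5 instars, against 573 of the 11742 genes that did not differ (4.88%) and 7 of the 69 female-higher genes (10.1%). At the other end, 34 male-higher genes (5.58%) were at 1 or more in all 6 libraries, against 70.8% of the genes that did not differ and 24 female-higher genes (34.8%). Further, 48 male-higher genes had 0 reads in all 6 libraries, as did 0 female-higher genes.

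The way genes entered the set bears on these percentages. A gene below 1 in the female pupa enters through the male pupa alone and then leans to the male by construction, and this holds for 506 of the 609 male-higher genes. Among genes at 1 or more in both pupae, 32 of 103 male-higher genes (31.1%) were undetected in the egg and larvae, against 231 of 10771 genes that did not differ (2.14%) and 4 of 45 female-higher genes (8.89%). Among genes at 1 or more in 1 pupa only, the percentages were 78.9% for male-higher genes, 35.2% for genes that did not differ and 12.5% for female-higher genes. The 35.2% pools genes that entered through either pupa and was not split, so that it is no like-for-like comparison for the 78.9%. Of all genes at 1 or more in the male pupa and below 0.5 in the female pupa, differing or not, 74.4% were undetected. For the reverse it was 33.1%.

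Counted in the other direction, as a description only, of the 1011 genes undetected in the egg and larvae, 431 were male-higher (42.6%) and 7 female-higher (0.692%), beside 4.90% and 0.556% of all 12420. No association is read from these counts, since most of these genes entered through 1 pupa. With detection in 1 of the 6 libraries the male-higher percentage was 17.3%, in 2 it was 8.74%, in 3 it was 3.31% and in all 6 it was 0.406%.

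**Figure D4:**
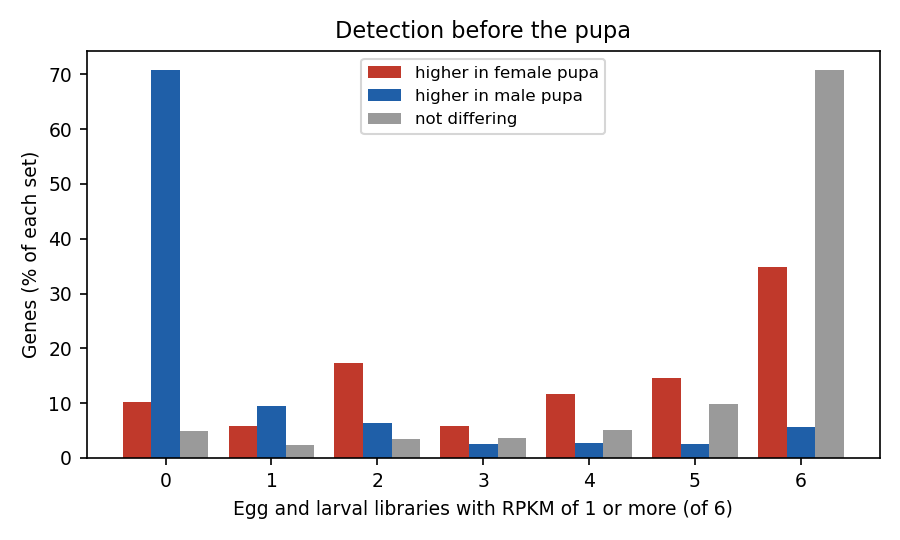
Bars give, for genes higher in the female pupa (red), higher in the male pupa (blue) and not differing (grey), the percentage detected at an RPKM of 1 or more in 0 to 6 of the egg and larval libraries. The male-higher genes pile up at 0 libraries (70.8%), the genes that did not differ at 6 (70.8%), and the female-higher genes are spread, with 34.8% at 6.

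The contrast was also present within bins of abundance, but binning does not remove the entry through 1 pupa. At a given mean, a male-higher gene was mostly near absence in the female pupa. Among genes at 1 or more in both pupae, with all bins together, the percentages were 31.1% for male-higher genes and 2.14% for genes that did not differ. At a mean pupal RPKM of 3 to 10, 72.5% of male-higher genes and 2.69% of genes that did not differ were undetected in the egg and larvae. At 10 to 30 the values were 65.1% and 0.231%, and at 30 to 100 they were 67.4% and 0.0925%. Below 3 they were 82.4% and 22.1%. The 3 male-higher genes above 1000 were each detected in the egg or a larva.

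The percentage of male-higher genes undetected before the pupa was similar with the libraries rescaled, at 69.9% when set to a common upper quartile and 69.8% when set to a common RPKM sum. Over the egg and instar 1 alone 79.6% were undetected, and over instars 2 to 5 alone 77.3%. The limit of detection moved it, to 56.3% at an RPKM of 0.5 and 89.7% at 5.

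Medians by stage are given as a description. Male-higher genes had a median RPKM of 0.129 in the egg, 0.0922 in instar 1, 0.0568 in instar 2, 0.0443 in instar 3, 0.0977 in instar 4 and 0.0354 in instar 5, and then 0.190 in the female pupa and 14.5 in the male pupa. Here and for the female-higher genes, the pupal medians follow from the rule that chose the genes. The egg and larval values did not enter that rule. In instars 2 to 5 the male-higher medians were below the RPKM of 3 reads in a gene of 1 kb (0.110, 0.106, 0.102 and 0.128). No order between the egg and larval medians and the female pupa median is read. Female-higher genes had medians of 5.80 in the egg, 6.53 in instar 1, 1.82 in instar 2, 1.85 in instar 3, 2.52 in instar 4 and 2.56 in instar 5, before 32.2 in the female pupa and 3.57 in the male pupa. Genes that did not differ ran from 13.8 in the egg and 10.6 in instar 1 to between 4.85 and 7.47 in instars 2 to 5, with 12.8 and 11.7 in the pupae. In adults the male-higher genes had a median of 10.2 in the male and 0.259 in the female, and the female-higher genes 3.14 in the male and 5.83 in the female.

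**Figure D5:**
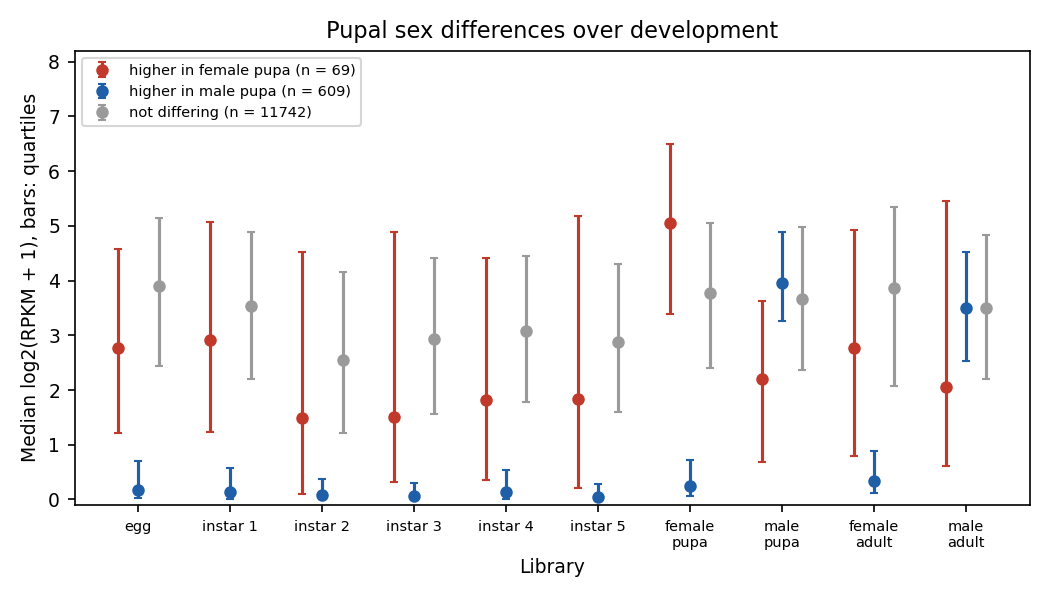
Points are the median and bars the quartiles of log2(RPKM + 1) over the 69 genes higher in the female pupa (red), the 609 higher in the male pupa (blue) and the 11742 that did not differ (grey) in each of the 10 libraries. The male-higher genes lie near 0 in the egg, larvae and both female libraries and above 3 in both male libraries, and the female-higher genes have wide quartiles in the larvae.

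Instar 5, the last larval stage before the pupa, was set against both pupae as a description only. Nearness uses the same pupal values that chose the genes. In 506 of the 609 male-higher genes the female pupa was below 1, so a low larval value falls nearer that pupa by construction. For 579 of the 609 male-higher genes (95.1%) instar 5 lay nearer the female pupa, and for 511 (83.9%) it was within 1 on the log2 scale of the female pupa. In 14 male-higher genes instar 5 was above the male pupa by 1 or more. The female-higher genes were split. Instar 5 lay nearer the male pupa in 47 of 69 (68.1%) and nearer the female pupa in 22 (31.9%). It was above the female pupa by 1 or more in 9 genes, and below the male pupa by 1 or more in 21. In this 1 library, part of the female-higher set was at a high level while the male pupa was low, as for RR46_02664 and RR46_07865. Another part was low in instar 5 and high in the female pupa. RR46_02664 and RR46_07865 were lower in instar 4, at 14.0 and 0.395, the second value being below that of the male pupa (6.84). With instar 4 in place of instar 5 the percentages were 96.4% for male-higher and 78.3% for female-higher genes. Instar 5 was a single animal of unlabelled sex. The same shares were not computed for genes that did not differ, so no result about which pupa departs from the larva is read from them.

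The higher pupa was also set against all egg and larval values. The differing genes were chosen for a high value in that pupa, which favours exceeding the egg and larvae. Of the 609 male-higher genes, 506 entered through the male pupa alone, so the contrast with other genes is a description only. The male pupa exceeded each egg and larval value in 572 of the 609 genes (93.9%), and by 2 or more on the log2 scale in 496 (81.4%). The female pupa exceeded each egg and larval value in 37 of the 69 female-higher genes (53.6%), by 2 or more in 19 (27.5%). Among genes that did not differ the higher pupa exceeded each in 43.2%, and by 2 or more in 2.36%.

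Among the 3 most abundant female-higher genes, 2 were low outside the pupae, with an RPKM of at most 2.10. One had 1607 RPKM in the female pupa and 300 in the male, a ratio of 5.36, and at most 2.10 in the egg and larvae. The other had 1235 and 34.7, a ratio of 35.6, and at most 0.342 before the pupa. Both were low again in adults, at most 1.05. The most abundant of the 3, at 1817 and 39.5 with a ratio of 46.1, was expressed in the egg (211), in instar 1 (448) and in each later instar, between 36.1 and 144, and stood at 2.88 (female) and 42.7 (male) in adults.

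Pupal values chose the 609 male-higher genes, and 506 entered through the male pupa alone, so their split by early detection is a description only. The 178 male-higher genes detected in the egg or a larva had a median difference of -2.83, against -3.56 in the 431 undetected ones. In the female pupa the median RPKM was 0.655 against 0.126. In the male pupa the medians were close, at 17.0 and 13.7. The highest early value of the 178 fell in the egg in 48 genes and in instar 4 in 46, with 25 each in instars 1 and 2, 22 in instar 5 and 12 in instar 3. Of the 62 female-higher genes detected early, 15 were highest in the egg, 14 in instar 5, 11 in instar 3, 9 in instar 4, 7 in instar 1 and 6 in instar 2. For genes that did not differ the egg was highest in 44.9%. Detection in the egg or instar 1 with none of instars 2 to 5 was seen in 11 female-higher genes (15.9%), 40 male-higher genes (6.57%) and 2.78% of genes that did not differ. The converse, detection in some of instars 2 to 5 with neither the egg nor instar 1, was seen in 5 female-higher genes (7.25%), 54 male-higher genes (8.87%) and 3.53% of genes that did not differ.

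Female-higher genes varied more among the larvae than the rest. The range of log2(RPKM + 1) over the 5 instars had a median of 2.74 in the 69 female-higher genes, 0.38 in the 609 male-higher genes and 1.70 in genes that did not differ. A range of 3 or more was found in 32 female-higher genes (46.4%), 29 male-higher genes (4.76%) and 13.2% of genes that did not differ. Among genes with a mean pupal RPKM of 10 or more these percentages were 56.5%, 5.15% and 13.5%. Undetected genes have little range, and among genes detected in the egg or a larva the percentages were 51.6%, 16.3% and 13.8%, so that male-higher genes then no longer lay below the genes that did not differ. Instar 4 lay below both instars 3 and 5 in 26 of the female-higher genes (37.7%) and in 24.9% of genes that did not differ. No test was made of these contrasts.

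Consecutive identifiers were seen in both directions, beyond the share of each direction among all 12420 genes. Of the 1006 places numerically next to a male-higher gene and held by one of the 12420 genes, 208 (20.7%) were also male-higher, beside 4.90% of all 12420. For female-higher genes it was 8 of 97 places (8.25%), beside 0.556%, a value that rests on 7 genes in 3 runs. In all, 185 male-higher genes (30.4%) had a male-higher neighbour in number, and 57 lay in 17 runs of 3 or more. The longest run held 7 genes, with an RPKM between 18.7 and 300.0 in the male pupa, at most 0.308 in the female pupa with 5 genes at 0 reads, at most 1.31 in the egg and larvae, and between 22.1 and 931 in the male adult. The single female-higher run of 3 had 10.1, 47.8 and 1235 in the female pupa against 0.119, 0.610 and 34.7 in the male pupa, and at most 1.32 before the pupa. These genes differed in recovered length and none of the differing genes had a near-identical copy in the table. Whether the numbers follow the order of genes on the scaffolds was not tested, nor was the sharing of reads between less similar neighbours.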

How the data were processed

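The authors isolated poly-A RNA from whole bodies, made random-primed cDNA, ran paired-end Illumina sequencing, mapped the reads to their own *P. xuthus* genome and deposited 1 table of RPKM values. The submitters' processing notes list TopHat 1.0.12 and 1.4.1. The use of strand and of reads with several hits is not given in the sources used here. RPKM is not corrected for library composition.

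Each RPKM is a whole number of reads over a gene length and a library total. The totals were solved from ratios between columns, and the smallest length giving whole reads within 1e-06 of a read in each library was taken for 100% of 15123 genes. A true length or read number can be a multiple of this. Reads served for depth and exact Clopper-Pearson 95% intervals, which cover counting error only. Differences used log2(RPKM + 1), which understates changes of low genes. Near-identical copies (8 sets, 33 genes) had equal length and reads within 2% or 3 reads of each other throughout. The steps were tested on simulated data and run in Python 3.11.15 with pandas 2.3.3 and scipy 1.17.1.

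With 1 library per group no test was made. Identifiers were printed for the 2 largest differences per direction, and other single genes (most abundant, nearest the threshold, in the longest run) were described without them. The 2 further abundant genes per direction, the range over instars, the leaving out of early or late stages and the restriction to genes at 1 or more in both pupae were chosen after values were seen. The gene set and thresholds were chosen with earlier results of these data known. Other pseudocounts, thresholds, scalings, filters and detection limits were tried.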

Additional observations from a re-analysis of the deposited data

How the results depend on the processing

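The 11 results were recomputed to give 85 alternative values, of which 59 stayed within their limits and 26 moved. The limits were 1.5-fold for counts and the RPKM share, and the exact 95% interval over genes for percentages of genes. Genes are not independent replicates, so that this interval is only a yardstick. It is wide for the 69 female-higher genes, at 4.18 to 19.8% around the 10.1% undetected in the egg and larvae. Rescaling to the same upper quartile or RPKM sum, or counting near-identical copies once, moved none of the 11 beyond these limits. The same median ratio was run for the 2 counts and the female share, and moved none of these. The same RPKM sum shifted the median difference by 0.11, with 93 female-higher and 643 male-higher genes. At a pseudocount of 0.1, 190 genes were higher in the female pupa, the female share was 18.1%, 23.2% of female-higher genes were undetected in the egg and larvae, and instar 5 lay nearer the female pupa in 91.8% of male-higher genes. A difference of 1 admits more genes by construction and gave 445 female-higher and 1142 male-higher genes, a female share of 28.0%, 6.90% of genes at a mean RPKM of 100 or more differing, 5.29% of the male pupa RPKM in male-higher genes, 52.5% of male-higher genes undetected earlier and 84.9% with instar 5 nearer the female pupa. A difference of 3 gave 20 and 373 genes and a share of 5.09%. Genes on in the male pupa and near 0 in the female numbered 189 with a minimum RPKM of 5, 159 at 0 and 665 below 0.5, and the reverse 3 with that minimum and 166 below 0.5. Male-higher genes undetected earlier were 56.3% at a detection RPKM of 0.5 and 89.7% at 5, where female-higher genes were at 29.0%. Without instars 2 to 5 the male-higher percentage was 79.6%, and without egg and instar 1 it was 77.3%, with 26.1% for female-higher genes. Among genes at 1 or more in both pupae it was 31.1%. These last settings were chosen after seeing the data. With 1 library per sex no replicate was left out. No paired analysis was possible because no group has more than 1 library. Depth limits single ratios against a pupa with few reads.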
